A study of Mus musculus with 6 samples.

Results

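The genes described here make the immunoproteasome and the peptide-loading and class I molecules of antigen presentation: Psmb8, Psmb9, Psmb10, Tap1, Tap2, Tapbp, B2m, H2-K1 and H2-D1. These 9 genes, of 18193 on the array with a probe set annotated to 1 symbol, were covered by 26 probe sets of 34945. The set was picked because Psmb8 and Psmb9 were lower in knockout cells, so every comparison of these 9 genes with wild type is given as a description with no test. Other genes were tested against wild type. All arrays carried RNA of mouse brown preadipocytes immortalised with the SV40 large T antigen and differentiated to brown adipocytes until day 7. The wild-type cells, at passage 4, carried no siRNA that the labels name. The second group, called knockout-control here, was PGC-1alpha -/- and expressed a control siRNA. The third, called knockdown, was PGC-1alpha -/- and expressed an siRNA against PGC-1beta. Each group had 2 arrays, called biological replicates in the series design. Nothing states that they came from separate cultures, so p-values measure only the spread between these arrays.

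The proteasome cuts intracellular proteins into peptides. In immune cells, and in many other cells exposed to interferon-gamma, the catalytic subunits encoded by Psmb8, Psmb9 and Psmb10 replace those encoded by Psmb5, Psmb6 and Psmb7, and the resulting immunoproteasome favours peptides that bind class I molecules. Tap1 and Tap2 form the transporter that carries peptides into the endoplasmic reticulum, and Tapbp encodes tapasin, which holds the class I molecule beside it. H2-K1 and H2-D1 encode classical class I heavy chains, and B2m encodes beta-2-microglobulin, the light chain they need to reach the cell surface. PGC-1alpha (Ppargc1a) and PGC-1beta (Ppargc1b) are transcriptional coactivators known in brown fat for raising mitochondrial genes.

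Of the 9 genes, 7 lie on chromosome 17 in the major histocompatibility complex (GRCm38.p6). Psmb10 is on chromosome 8 and B2m on chromosome 2. Psmb9 (chr17:34182030-34187330), Tap1 (chr17:34187556-34197225), Psmb8 (chr17:34198195-34201454) and Tap2 (chr17:34204479-34216321) follow one another within 34.3 kb. Psmb9 and Tap1 run in opposite directions from ends 225 bases apart. H2-K1 (chr17:33996012-34000619), Tapbp (chr17:33919478-33929290) and H2-D1 (chr17:35263094-35267497) lie outside that run, H2-D1 at 1267 kb from H2-K1.

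Promoter windows from RefSeq (GRCm38.p6, 250 bases before to 50 after the gene start) were held for 8 of the 9 genes, and 5 are shown. Psmb8 had the largest difference, the Tap1 window also covers most of the letters of the Psmb9 window, and H2-K1, H2-D1 and B2m encode the class I molecule and held motif matches. The table gives 2 windows for H2-K1 with the same matches, each around a start inside the gene's outer bounds, and the first is printed. Capitals mark matches on either strand to the motifs searched. These were the interferon-stimulated response element (ISRE), as GAAA, any 2 bases and GAAA, a short ISRE form as GAANNGAAA, the gamma-activated site (GAS) as TTCNNNGAA, and a kappa-B site, as GGGNN followed directly by TTNCC.
Psmb8 (chr17:34197945-34198244, plus strand): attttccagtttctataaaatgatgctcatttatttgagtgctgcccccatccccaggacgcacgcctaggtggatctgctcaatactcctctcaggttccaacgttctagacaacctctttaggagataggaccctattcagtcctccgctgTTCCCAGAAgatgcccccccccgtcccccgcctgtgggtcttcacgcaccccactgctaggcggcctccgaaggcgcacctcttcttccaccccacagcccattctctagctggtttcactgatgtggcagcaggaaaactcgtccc
Tap1 (chr17:34187306-34187605, plus strand): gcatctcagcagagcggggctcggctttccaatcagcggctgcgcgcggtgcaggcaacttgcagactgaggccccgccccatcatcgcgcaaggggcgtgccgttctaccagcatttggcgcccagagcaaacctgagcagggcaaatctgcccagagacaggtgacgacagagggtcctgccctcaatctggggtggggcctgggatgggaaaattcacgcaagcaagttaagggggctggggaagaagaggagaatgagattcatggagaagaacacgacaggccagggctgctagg
H2-K1 (chr17:34000298-34000597, minus strand): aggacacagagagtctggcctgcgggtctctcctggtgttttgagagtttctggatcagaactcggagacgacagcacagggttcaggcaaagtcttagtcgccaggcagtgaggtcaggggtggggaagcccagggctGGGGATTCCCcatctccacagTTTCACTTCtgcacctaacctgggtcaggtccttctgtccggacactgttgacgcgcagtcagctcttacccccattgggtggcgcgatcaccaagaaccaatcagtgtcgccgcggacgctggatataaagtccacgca
H2-D1 (chr17:35262844-35263143, plus strand): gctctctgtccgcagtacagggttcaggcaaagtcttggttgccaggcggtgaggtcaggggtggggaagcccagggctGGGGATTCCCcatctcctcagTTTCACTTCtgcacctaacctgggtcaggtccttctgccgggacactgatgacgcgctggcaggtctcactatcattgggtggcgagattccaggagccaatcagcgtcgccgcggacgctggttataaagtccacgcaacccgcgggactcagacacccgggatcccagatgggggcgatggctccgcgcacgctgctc
B2m (chr2:122147437-122147736, plus strand): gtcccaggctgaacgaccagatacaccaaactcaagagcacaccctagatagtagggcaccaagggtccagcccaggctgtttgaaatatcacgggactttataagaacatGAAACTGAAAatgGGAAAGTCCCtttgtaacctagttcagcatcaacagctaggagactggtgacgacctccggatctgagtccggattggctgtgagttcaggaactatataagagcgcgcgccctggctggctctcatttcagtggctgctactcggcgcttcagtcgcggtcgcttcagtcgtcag

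The windows of H2-K1 and H2-D1 held the same pair of matches, a kappa-B match followed by the short ISRE form, and shared an identical stretch of 47 bases. B2m held an ISRE match and a kappa-B match, and Psmb8 a GAS match. The Tap1 window shared 275 bases with the window of Psmb9, which faces the other way, and neither held a match. The windows of Psmb10 and Tapbp, not printed, held none either. Among all 32851 windows of the table, 3.44% held the ISRE, 7.52% the short form, 8.3% the GAS and 4.79% the kappa-B letters. None of the listed matches overlapped another, and a match describes letters only.

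Some facts of the series bear on each comparison. Array medians lay between 220.9 and 242.7 and were taken as already scaled. Of 9 brown adipocyte markers tested, 1 was called between knockout-control and wild type. It was Elovl3, a fatty acid elongase, at mean intensities of 225 in wild type and 1795 in knockout-control (limma adjusted p = 0.000349). Ucp1, the uncoupling protein of brown fat, stood at 4625 in wild type and 3962 in knockout-control, and at 130.2 in knockdown. Adipoq, which encodes adiponectin, stood at 12035, 10385 and 9648 in wild type, knockout-control and knockdown. The targeted Ppargc1b stood at 3006, 2082 and 379 in the same order. Ppargc1a, by its brightest probe set, stood at 1329, 799 and 897, and whether its probes lie in the deleted part is not stated by the labels, so this probe set does not check the knockout. Sex-linked transcripts gave a mixed picture. Eif2s3y, on the Y chromosome, reached 872 and 961 in wild type, against 6.25 on knockout-control array 2 and 5.13 on knockdown array 2, the others having no value. Xist, transcribed from the inactive X chromosome, had no value in wild type and stood at 1230 and 1648 in knockout-control and 958 and 849 in knockdown. The brightest probe sets of Y-linked Uty and Kdm5d overlapped between wild type and knockout-control, at means of 456 and 440.4 and of 172 and 149.9. Genotype, cell line, sex and siRNA vector cannot be told apart in any comparison with wild type.

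The immunoproteasome subunits came first in the comparison of knockout-control with wild type, which asks what loss of PGC-1alpha changes in brown adipocytes. Psmb8 had intensities of 1733 and 1571 in wild type, 83.8 and 116 in knockout-control, and 301 and 174 in knockdown. Both wild-type arrays stood far above the other 4, and the knockout-control and knockdown arrays did not overlap. The wild-type mean was 1652 ± 114 (SD, n = 2), against 99.7 ± 22.5 for knockout-control and 238 ± 89.4 for knockdown, or 6.04% and 14.4% of wild type. Its knockout-control level lay below 163.6, the intensity at the 40th percentile of all probe sets, under which a gene's mean over the arrays counted as dim. Psmb9 had intensities of 2900 and 2715 in wild type, 263 and 361 in knockout-control, and 511 and 386 in knockdown. Its means were 2807 ± 131, 312 ± 69.0 and 449 ± 87.9 (SD, n = 2), and it stood at 11.1% and 16% of wild type. Here too the 3 groups did not overlap, in the order wild type, knockdown, knockout-control. Psmb10, the third inducible subunit, had intensities of 1483 and 1465 in wild type, 1106 and 1162 in knockout-control, and 1415 and 1200 in knockdown. Its order was the same and its arrays did not overlap, but the difference was small, with knockout-control at 76.9% and knockdown at 88.7% of wild type.

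On the scale of log2(intensity + 32), where 32 is a pseudocount that damps dim values, knockout-control minus wild type was -3.69 ± 0.23 (SE from limma) for Psmb8, -3.06 ± 0.19 for Psmb9 and -0.37 ± 0.15 for Psmb10. These are differences, and that of Psmb8 depends on the pseudocount, from -3.96 with a smaller to -2.97 with a larger one, since its knockout-control level was dim and had no detection call. Folds given below are on the log2(intensity + 32) scale too, so for dim genes they fall short of the ratio of the mean intensities. A second probe set of Psmb8 was dim, at 57 and 91.6 in wild type, with the word null on 2 of the other 4 arrays.

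The peptide transporter and its partner came next. Tap1 had intensities of 1026 and 1125 in wild type, 359 and 473 in knockout-control, and 622 and 475 in knockdown. Knockout-control stood at 38.6% of wild type and knockdown at 51%. The lower knockdown array and the higher knockout-control array were almost level, so these neighbours in the order did not differ beyond their spread. Tap2 had intensities of 727 and 747 in wild type, 279 and 392 in knockout-control, and 539.7 and 323 in knockdown. Its knockout-control and knockdown arrays overlapped, and both groups lay below wild type, at 45.5% and 58.5%. Tapbp had intensities of 3429 and 3421 in wild type, 2611 and 3008 in knockout-control, and 3845 on the 1 knockdown array with a value. The second probe set of Tapbp had a value on all 6 arrays, 1649 and 1391 in wild type, 1420 and 1317 in knockout-control, and 2109 and 1759 in knockdown. By that probe set wild type and knockout-control overlapped and knockdown was the highest group, so tapasin did not follow the order of the other 8 genes. Knockout-control minus wild type was -1.32 ± 0.19 for Tap1, -1.08 ± 0.24 for Tap2 and -0.29 ± 0.15 for Tapbp on the log2 scale. The other 3 probe sets of Tap1 were dim, with wild-type means between 67.6 and 146.

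The class I molecule was bright on every array. B2m had intensities of 10150 and 10134 in wild type, 5336 and 5904 in knockout-control, and 7740 and 7444 in knockdown. H2-K1 had intensities of 8320 and 7863 in wild type, 2818 and 2739 in knockout-control, and 5239 and 5732 in knockdown. H2-D1 had intensities of 9443 and 9167 in wild type, 3655 and 3759 in knockout-control, and 5808 and 6038 in knockdown. In all 3 genes the groups stood apart with wild type highest, knockdown between and knockout-control lowest. Knockout-control reached 55.4% of wild type for B2m, 34.3% for H2-K1 and 39.8% for H2-D1, and knockdown reached 74.9%, 67.8% and 63.7%. Knockout-control minus wild type was -0.85 ± 0.14, -1.53 ± 0.14 and -1.32 ± 0.14 on the log2 scale. The brightest probe set of any array reached 15531, and a flattening of the response at high intensity was not tested.

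**Figure D1:**
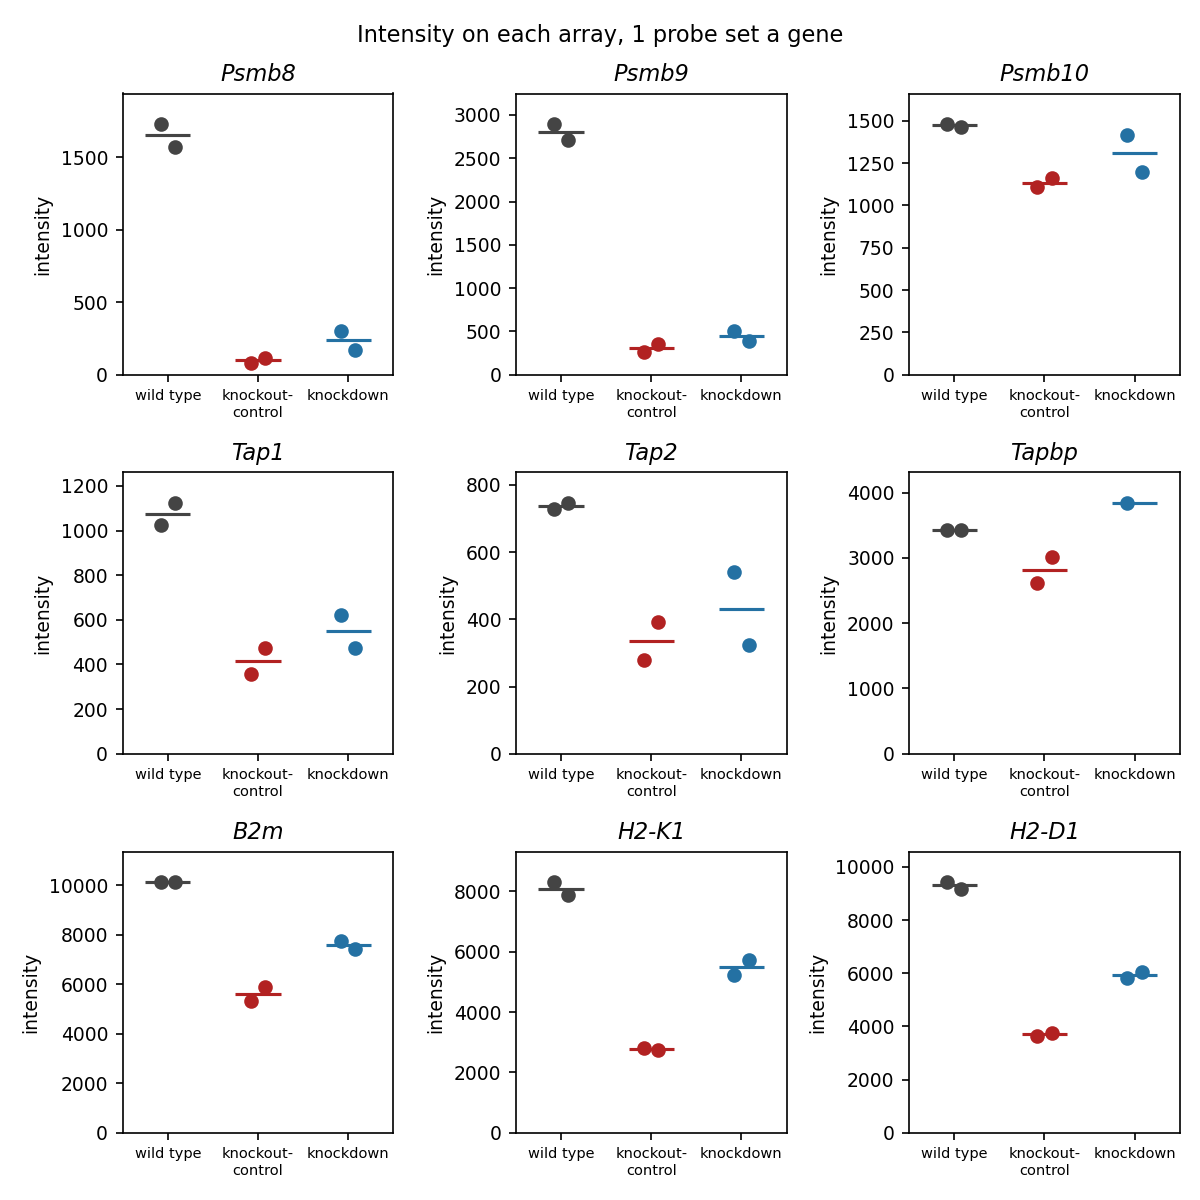
Intensity of each gene on the 6 arrays, with 1 panel a gene for the probe set with the highest mean, points for arrays and bars for group means (n = 2, but 1 knockdown array for Tapbp). Each vertical axis starts at 0 and differs between panels. Wild type is highest and knockout-control lowest for 8 genes, and the knockdown array of Tapbp, at 3845, lies above wild type.

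Knockout-control was lower than wild type without overlap for 9 of 9 genes, against 30.1% of all genes tested with a value on these arrays. Since the genes were picked on this comparison, nothing is read from that count. The median difference was -1.32 over the 9 genes and 0.00 over all 13652 genes tested. In bulk RNA, fewer cells of a type and less RNA per cell cannot be told apart. Knockdown was lower than wild type without overlap for 8 genes, with no verdict on Tapbp because of its missing value, against 30.4% of genes tested. The median difference there was -0.65 over the 9 genes and -0.03 over all genes. These comparisons share the wild-type arrays, and their values are given side by side only.

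The comparison of knockdown with knockout-control asks what further lowering of PGC-1beta changes in cells of 1 genotype. It was not the comparison used to pick the genes, but it shares the knockout-control arrays with it, so a low value there by chance would also raise this difference. H2-K1 rose 1.96-fold (log2 fold change 0.97 ± 0.14 SE, limma with Benjamini-Hochberg adjustment over all genes, adjusted p = 0.0294), and both knockdown arrays were above both knockout-control arrays. It was the 1 gene of the 9 called, where 0.835% of all 13649 genes tested were called and 0.271% were called higher. When 1 array was left out, the call was lost for either wild-type array and either knockout-control array (limma adjusted p up to 0.182), although the log2 fold change ranged only from 0.91 to 1.04. With the replicate number as a block, H2-K1 had a limma adjusted p of 0.0984.

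The other 8 genes did not pass. H2-D1 stood at 0.67 ± 0.14 (limma adjusted p = 0.0643) and Psmb8 at 1.0 ± 0.23 (limma adjusted p = 0.094). Psmb8 passed the filter only through wild type, since its mean log2 value was 7.53 over the 4 arrays compared, under the filter at 7.61. Nothing is therefore read from its adjusted p. The log2 fold change of Psmb8 was 1.35 without knockdown array 2, a fit in which the lone knockdown array is assumed to vary like the other groups. B2m stood at 0.43 ± 0.14 (limma adjusted p = 0.212), Psmb9 at 0.49 ± 0.19 (0.304) and Tapbp at 0.45 ± 0.19 (0.333, with 1 knockdown array). Tap1 stood at 0.38 ± 0.19 (limma adjusted p = 0.416), Psmb10 at 0.20 ± 0.15 (0.614) and Tap2 at 0.31 ± 0.24 (0.629). Tap2 had a value of -0.03 without knockdown array 1, and its sign therefore rests on that array. Knockdown arrays lay above knockout-control arrays without overlap for 7 of the 8 genes with a value on all 4 arrays, against 17.1% of genes tested. The median over the 9 genes was 0.45, and -0.01 over all genes. That count and that median include Psmb8 and Psmb9, picked for low values in knockout cells, so nothing is read from either. At an unadjusted limma p under 0.05 there were 6 of the 9, Psmb8 and Tapbp among them. The share of all genes at that threshold was not computed, so nothing is read from this count.

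The class I genes had several probe sets, and these differed in size. Of the 26 probe sets, 18 passed the filter on dim signals. In knockout-control 23 of the 26, and 17 of the 18, were lower than in wild type without overlap, where 30.9% of all probe sets past the filter were. The 3 without that order were the dim Psmb8 probe set with missing values, the second Tapbp probe set and 1 dim H2-D1 probe set, at 126 in wild type and 169 ± 103 in knockout-control. Knockdown lay above knockout-control without overlap for 19 of the 26 and 16 of the 18, where 17.3% of all probe sets past the filter did. The 7 that did not were the Tap2 probe set, 4 dim H2-D1 probe sets, and 1 probe set each of Psmb8 and Tapbp with missing values. Both shares go with the 18, and none was computed with dim probe sets included. The genes were picked for a fall from wild type, and both counts use the knockout-control arrays, so nothing is read from either count. The counts also hold near-ties, such as Tap1 at 475 in knockdown against 473 in knockout-control. Among 5 H2-D1 probe sets above the filter, knockout-control stood between 9.52% and 54.4% of wild type, and among 4 of H2-K1 between 20.1% and 58.4%. The H2-D1 probe set 1426324_at had intensities of 1429 and 1272 in wild type, 126 and 132 in knockout-control, and 415 and 348 in knockdown. The H2-D1 probe set 1425614_x_at stood at 883 and 845, 457 and 484, and 875 and 877, so its knockdown arrays had returned into the range of wild type. The suffix x in a probe set's name marks probes that can match more than 1 sequence, and H2-K1, H2-D1 and their relatives are near-identical and differ between mouse strains, so signal may be shared among them. A label gives a mixed background for the wild-type mouse, and the H2 alleles of either line were not stated by the labels.

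With every probe set tested on its own, 4 were called higher in knockdown than in knockout-control, against 0.216% of 22719 probe sets tested. They belonged to H2-K1 and H2-D1. The H2-D1 probe set 1426324_at rose by a log2 fold change of 1.36 ± 0.16 (limma adjusted p = 0.0153) and 1425614_x_at by 0.85 ± 0.14 (0.0482). The H2-K1 probe set 1427746_x_at rose by 1.22 ± 0.18 (limma adjusted p = 0.0368) and 1425336_x_at by 0.97 ± 0.15 (0.0391). Another H2-K1 probe set, 1450534_x_at, stood at 0.13 ± 0.17 (limma adjusted p = 0.817). Probe sets of a gene share its RNA and are not replicates.

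**Figure D2:**
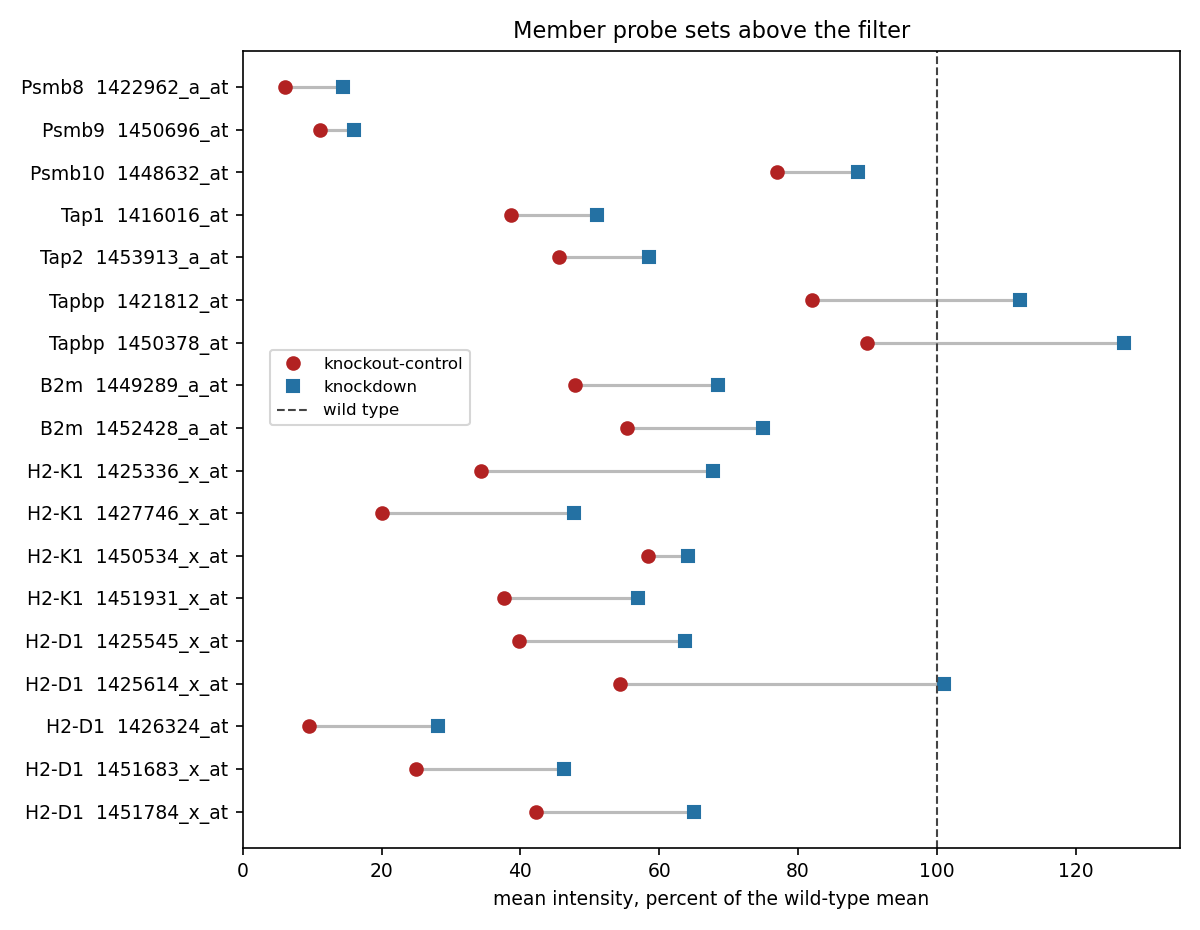
Mean intensity of the 18 member probe sets above the filter in knockout-control (circles) and knockdown (squares), as a percent of the wild-type mean (dashed line at 100), n = 2 arrays a group except 1 knockdown array for Tapbp 1421812_at. Psmb8, Psmb9 and the H2-D1 probe set 1426324_at lie farthest left, at 6.04%, 11.1% and 9.52% in knockout-control.

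Genes around the run of immunoproteasome and transporter genes were examined for the same difference. Within 250 kb of the Psmb8 start, GRCm38.p6 places 34 other genes, 21 of them protein-coding, and 16 could be tested. Between knockout-control and wild type 1 of the 16 rose and 0 fell, at a median of -0.06 and a range from -0.56 to 0.64, where 6.05% of all genes were called, 2.55% higher and 3.5% lower. The gene that rose was H2-DMb2, a class II peptide-loading chain (0.64 ± 0.15 SE, limma adjusted p = 0.0438). Its 2 other probe sets stood at 0.05 ± 0.15 and -0.08 ± 0.15 (limma adjusted p = 0.901 and 0.836). Its call was lost when any of the 4 arrays compared was left out, and without knockout-control array 2 another probe set was its brightest, at -0.05. Brd2, a bromodomain protein 86.2 kb to the left, stood at -0.41 ± 0.17 (limma adjusted p = 0.209). In knockdown against knockout-control 0 of the 16 were called in limma, with values from -0.34 to 0.43.

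**Figure D3:**
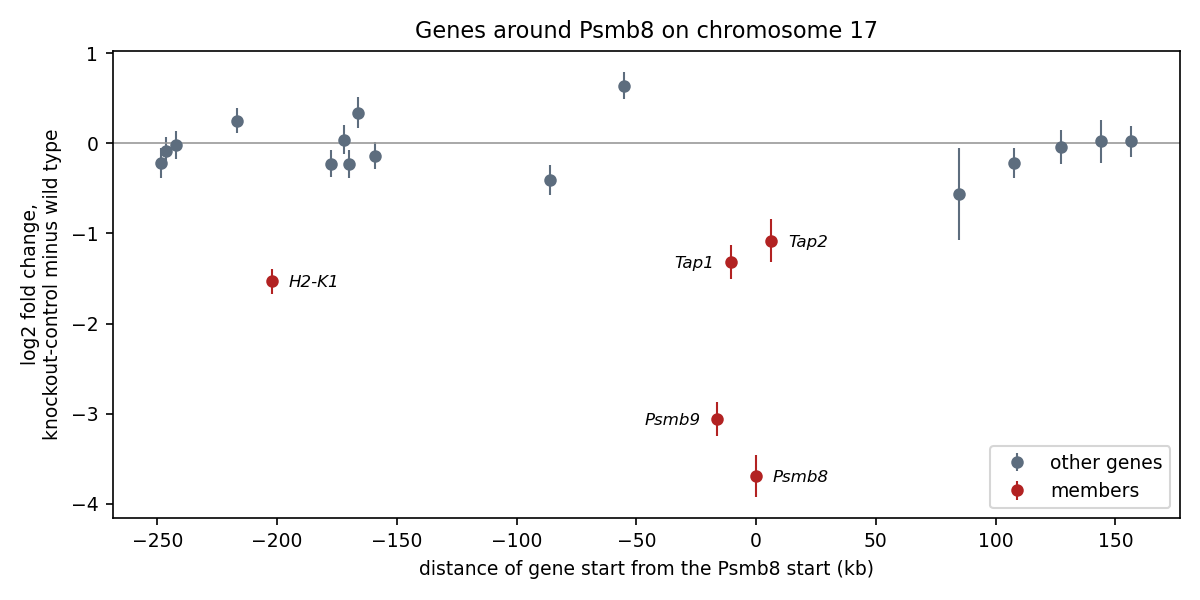
Difference between knockout-control and wild type on the log2(intensity + 32) scale for each tested gene within 250 kb of the Psmb8 start, against the distance between gene starts, with bars of 1 SE from limma. Members are labelled and lie between -3.69 and -1.08, and the other 16 genes lie between -0.56 and 0.64.

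The rest of the pathway was read from 6 lists with 102 genes, of which 75 could be tested. Of the 75, 5 were called between knockout-control and wild type, or 6.67%, beside 6.05% of all genes, and 1 between knockdown and knockout-control, or 1.33%, beside 0.835%. Both shares are near the background and are no result about the pathway. Of 7 tested genes among constitutive catalytic subunits and proteasome activators, 0 were called in limma in either comparison. Psmb5, Psmb6 and Psmb7, which the inducible subunits replace, had differences of 0.38 ± 0.14, -0.27 ± 0.21 and 0.01 ± 0.14 between knockout-control and wild type (limma adjusted p = 0.16, 0.518 and 0.989). The proteasome activator gene Psme1 stood at -0.05 ± 0.15 (limma adjusted p = 0.902). Of 9 peptide trimming and loading helpers 0 were called in either comparison. The chaperones Calr and Canx stood at -0.36 ± 0.15 and -0.35 ± 0.19, Pdia3, a partner of tapasin, at -0.49 ± 0.16, and Erap1, a trimming peptidase, at 0.22 ± 0.23 (lowest limma adjusted p = 0.125). Of 8 other class I and class I-like genes 0 were called, with Mr1, which presents vitamin metabolites, the lowest at -0.96 ± 0.27 (limma adjusted p = 0.0754). Their median was -0.06, but only 10 of the 20 listed had a probe set named for them alone.

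Among 28 tested regulators of class I genes and interferon signalling, 1 rose and 2 fell between knockout-control and wild type. Ifngr1, a receptor chain for interferon-gamma, rose 3.68-fold, from intensities of 749 and 801 to 2616 and 3301 (1.88 ± 0.19, limma adjusted p = 0.00115), and kept its call with each of the 6 arrays left out in turn. Ifnar1, a receptor chain for type I interferons, fell 2.2-fold, from 1015 and 1013 to 418 and 469.5 (-1.14 ± 0.18, limma adjusted p = 0.00934). Jak1, the kinase that both receptors use, fell 1.55-fold, from 2783 and 2799 to 1641 and 1956 (-0.63 ± 0.15, limma adjusted p = 0.0468). The calls of Ifnar1 and Jak1 were lost without wild-type array 1, wild-type array 2 or knockout-control array 1, and that of Jak1 also without knockout-control array 2 (limma adjusted p up to 0.0864 and 0.317). The other 2 probe sets of Jak1 stood at -0.47 ± 0.15 and -0.61 ± 0.20 (limma adjusted p = 0.105 and 0.11). Irf1, a transcription factor of class I and immunoproteasome genes, stood at -0.13 ± 0.14 (limma adjusted p = 0.676), with intensities of 1354 and 1332 in wild type, 1192 and 1261 in knockout-control, and 1737 and 1554 in knockdown. Nlrc5, the coactivator of class I genes, was dim, at means of 176, 124 and 124 in wild type, knockout-control and knockdown, and was not tested. The proteasome activator gene Psme2 was not analysed here, since no probe set carried its symbol alone. Between knockdown and knockout-control 0 of the 28 were called in limma, with Relb, an NF-kappa-B subunit, the highest at 0.86 ± 0.19 (adjusted p = 0.0844).

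Of 16 interferon-induced genes 0 rose and 1 fell between knockout-control and wild type, at a median of -0.30. The gene was Ifit2, which fell 2.29-fold, from 297 and 297 to 89.7 and 138 (-1.19 ± 0.20, limma adjusted p = 0.0127), and lost its call without wild-type array 1, wild-type array 2 or knockout-control array 1 (limma adjusted p up to 0.1). Between knockdown and knockout-control 0 were called in limma, at a median of 0.37, with Ifit1 at 1.16 ± 0.37, Ifit2 at 1.08 ± 0.20 and the chemokine Cxcl10 at 1.04 ± 0.33 (adjusted p = 0.211, 0.0564 and 0.213). These median differences are beside 0.00 and -0.01 over all genes.

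The class II pathway presents peptides on dendritic cells, macrophages and B cells, and 7 of its 12 listed genes with a probe set passed the filter. Ciita, its master coactivator, stood at 587, 599.7 and 498 in wild type, knockout-control and knockdown (limma adjusted p = 0.953 and 0.563 in the 2 comparisons). Among them Cd74, the invariant chain, rose 1.94-fold between knockout-control and knockdown, from 127 and 163 to 311 and 308 (0.96 ± 0.15, limma adjusted p = 0.0399). Its wild-type arrays stood at 239 and 228, and its call was lost when any wild-type or knockout-control array was left out (limma adjusted p up to 0.248). Between knockout-control and wild type Cd74 stood at -0.59 ± 0.15 (limma adjusted p = 0.0598).

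**Figure D4:**
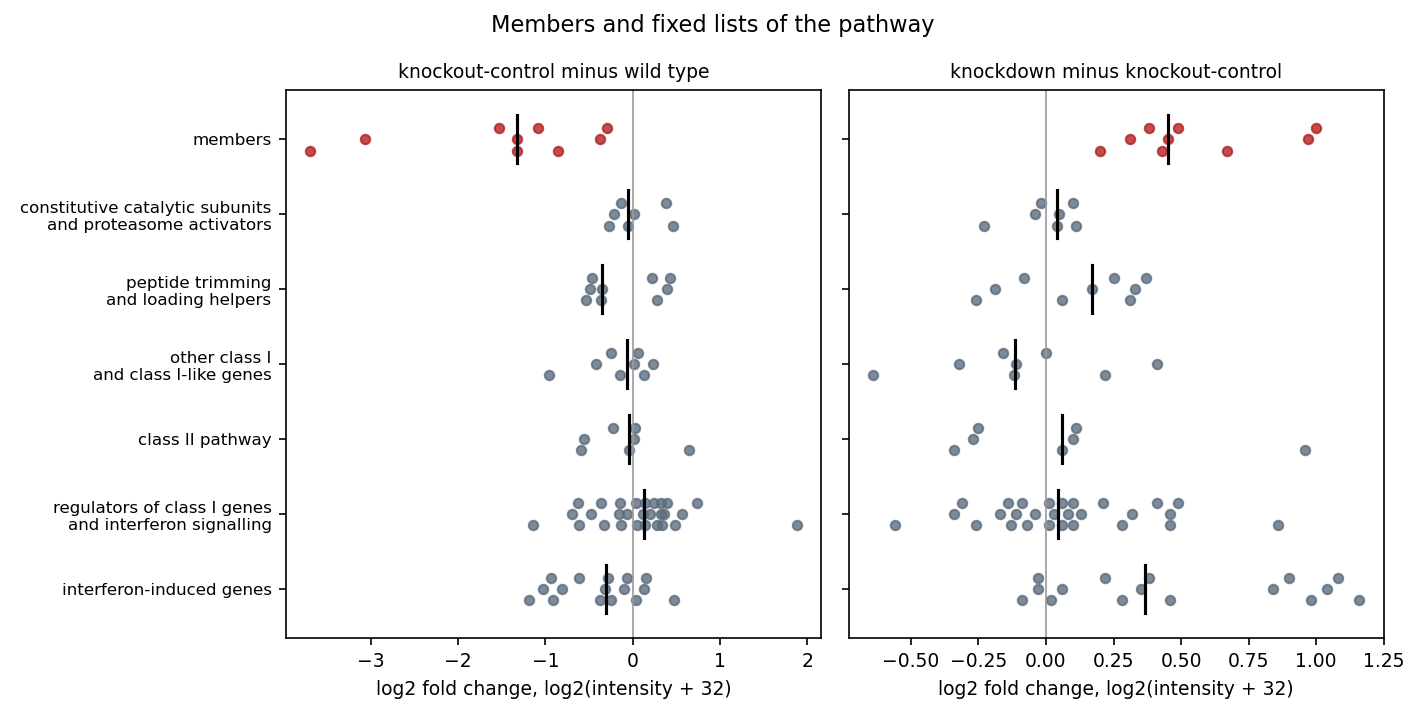
Differences on the log2(intensity + 32) scale for the 9 members (red) and the tested genes of 6 lists (grey), in knockout-control minus wild type (left) and knockdown minus knockout-control (right), with bars at medians and a different horizontal scale in each panel. The members have medians of -1.32 and 0.45, and the list medians lie between -0.35 and 0.13 on the left and between -0.11 and 0.37 on the right.

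Markers of cells that normally express these genes strongly were set beside the result. Summed intensities of 11 leukocyte markers ranged over 3167 to 3463 in wild type, 2697 to 3552 in knockout-control and 2677 to 3206 in knockdown. Those of 10 macrophage markers ranged over 3982 to 4173, 3989 to 4463 and 3764 to 4156, and those of 7 endothelial markers over 919 to 991, 991 to 1011 and 876 to 1012. Among the tested members of these lists, 7, 7 and 2 genes, 0 were called in limma between knockout-control and wild type or between knockdown and knockout-control. Csf1r was the largest part of the macrophage sum, at means of 1901, 2025 and 1784 in wild type, knockout-control and knockdown. The dim macrophage marker Cd68 stood at 79.9 and 117 in knockout-control and at 213 and 200.5 in knockdown. Mrc1, also dim, went the other way, from 181 and 165 to 94.4 and 98.8, and neither was tested. Ptprc, the pan-leukocyte marker, had means of 342 ± 59.3, 355 ± 224 and 349.6 ± 142 (SD, n = 2), so its arrays spread widely. Itgax, another leukocyte marker, had means of 541, 414 and 326 in wild type, knockout-control and knockdown. It was called lower in knockdown than in wild type (-0.69 ± 0.16, limma adjusted p = 0.0334). In that comparison 1, 0 and 0 of the 7, 7 and 2 tested genes were called. Summed intensities of 9 brown adipocyte markers were 51692 to 51877 in wild type, 48885 to 50770 in knockout-control and 34030 to 38004 in knockdown. Of the 9, 4 were called lower in knockdown than in knockout-control, where 0.835% of all genes were called in either direction. The other 5 were not called, among them Fabp4 and Adipoq, each at -0.11 ± 0.14. The 6 preadipocyte and fibroblast markers summed to 1476 to 1625, 1246 to 1717 and 2501 to 2839, and Dlk1 among them rose 3.53-fold in knockdown (limma adjusted p = 0.00696). Its mean went from 411 in knockout-control to 1531 in knockdown, so most of the rise of that sum was in Dlk1. The other 3 tested markers were not called in that comparison. Pdgfra stood at 0.52 ± 0.16, Pdgfrb at -0.4 ± 0.26 and Thy1 at -0.25 ± 0.15. The part of these shifts in the class I values of knockdown cells was not tested.

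Genes with the pattern most like Psmb8 and Psmb9 were named by the root mean square difference of log2 values over the 6 arrays, each gene set to 0 at its wild-type mean, among 13343 other genes with a value on every array. For Psmb8 the nearest gene was Psmb9 (0.38), followed by Ptp4a3, a phosphatase (0.47), Tfr2, a transferrin receptor (0.55), Cdkn1c, a cell cycle inhibitor (0.58), and Hmgn3, a nucleosome-binding protein (0.63). For Psmb9 the nearest were Ptp4a3 (0.12), Tfr2 (0.26), the superoxide dismutase Sod3 (0.29), Cdkn1c (0.29) and Hmgn3 (0.31), with Psmb8 at rank 6. Tap1 was at rank 97 from Psmb8, H2-K1 at 129, H2-D1 at 158, Tap2 at 191, B2m at 554 and Psmb10 at 2442. The measure weighs the size of a difference as well as its shape. It uses the fall from wild type for which Psmb8 and Psmb9 were picked, so nothing is read from their nearness or from the members' ranks. In knockdown minus knockout-control, Psmb8 stood at 1.0 ± 0.23 and was not called (limma adjusted p = 0.094), with its mean over those arrays under the filter. There Ptp4a3, Tfr2, Cdkn1c and Hmgn3 stood at 0.22, -0.06, -0.22 and -0.24. Whether Psmb8 differs from these 4 genes was not tested.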

How the data were processed

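Biotin-labelled RNA was hybridised to 6 arrays with 1 colour, per the labels. The authors deposited 1 linear intensity per probe set and array for 45037 probe sets, with summarisation, background correction and scaling not given in the sources used here. Table cells with the word null (5285) or nothing (870) stayed missing. Names came from the platform annotation, its symbols updated through Entrez identifiers (34741 of 34945 with 1 symbol matched), and 932 with several symbols and 9160 with none here were not used. Each gene was read from its brightest probe set by mean log2 value, and genes with a mean under the 40th percentile (7.61, an intensity of 163.6) were left out, which kept 13658 genes, all 9 members among them. limma (version 3.58.1, R 4.3.3) was fitted to log2(intensity + 32) on all 6 arrays with group means only, with 3 residual and 5.45 prior degrees of freedom, and calls were made at a Benjamini-Hochberg adjusted p under 0.05. Precision is limited by the number of arrays, and an exact permutation test of 2 against 2 could not reach 0.05. Alternatives were the pseudocount, filter, scaling, probe set rule, model, replicate block and each array left out.

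The members, lists and motifs were chosen with earlier results of these data known. Named genes were all members, up to 3 called genes of each list with the largest differences, some fixed pathway genes, genes within 250 kb of Psmb8 that were called, and the 5 nearest in pattern to Psmb8 and to Psmb9. Brd2, Mr1, Relb, Ifit1, Cxcl10, Ptprc, Dlk1, Elovl3, Uty, Kdm5d and Xist were named after their values were seen. So were Adipoq, Cd68, Csf1r, Eif2s3y, Fabp4, Itgax, Mrc1, Pdgfra, Pdgfrb and Thy1. Promoter sequences were RefSeq's, of GRCm38.p6.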

Additional observations from a re-analysis of the deposited data

How the results depend on the processing

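Over 17 alternatives, every value that could be computed for the 9 members in knockout-control minus wild type kept its sign. The counts of members lower without overlap stayed within 1 gene of the reported 9 and 8. Psmb8 ranged from -3.96 to -1.86, the last with the mean of its probe sets, 1 of them dim, and Tap1 fell under the filter in that setting. In knockdown minus knockout-control 150 of 151 values were above 0, and the exception was Tap2 at -0.03 without knockdown array 1. Over the arrays left out, Tap2 ranged from -0.03 to 0.66.

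Calls were less stable. Against 1 member called between knockdown and knockout-control, the count was 2 with arrays scaled to the same median, with every probe set tested, with the filter raised to the 60th percentile and with a larger pseudocount. It was 3 with quantile normalization and with trend and robust settings, and 0 with the mean of probe sets, no filter, only the 2 groups compared or the replicate block, and 0 to 2 with each array left out. H2-K1 was called in 9 and H2-D1 in 6 of the 17. Against 5 genes of the lists called between knockout-control and wild type, the count was 9 with equal medians, 2 with the mean of probe sets or no filter, 16 with only the 2 groups compared, 8 and 3 with a larger and a smaller pseudocount, 15 with quantile normalization, 3 with the replicate block and 1 to 16 with each array left out. Against 1 called between knockdown and knockout-control, it was 2 with equal medians, every probe set, a larger pseudocount or trend and robust settings, 3 with quantile normalization, 0 with the 60th percentile, the mean of probe sets, no filter, only the 2 groups or the replicate block, and 0 to 2 with each array left out. The causes were not tested.

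Replicate numbers are shared between groups in the titles, and nothing says what they pair. Deviations of same-numbered arrays correlated over genes with r = 0.202 (wild type and knockout-control), -0.147 (wild type and knockdown) and -0.502 (knockout-control and knockdown), so they were taken as shared numbers only. Low signals such as Psmb8 in knockout-control had no detection call to set them against.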
